A study of Mus musculus with 36 samples.

Results

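The entries described here are 8 of the 1963 miRNAs listed in the deposited tables, and they are atypical as miRNAs. mmu-miR-1291, mmu-miR-5121 and mmu-miR-1839-5p lie inside annotated genes of small nucleolar RNAs (snoRNAs) or of a related kind, mmu-miR-1839-3p is the other arm of the last of these, mmu-miR-690, mmu-miR-3473b and mmu-miR-3473e come from hairpins that share repeated sequence, and mmu-miR-5099 comes from a hairpin with no other annotated gene. Reads counted under such entries may be pieces of other RNAs. They were chosen by the kind of their origin, but with their levels over the 12 groups of these libraries already known, so the tests given for them below are no independent support. The libraries came from the ventral and lateral prostate lobes of male mice of strain C56NL/6N, as the labels spell it, aged 10 or 30 weeks. WT mice were labelled ELAC2+/+. KO mice lacked Elac2 where a Cre recombinase driven by the probasin promoter (Pb-Cre) was active, which is the prostate epithelium, so other cells of the lobes kept the gene. A537T mice were homozygous for the A537T change of ELAC2 in all cells. Groups with TRAMP in their name also carried 1 copy of the TRAMP transgene, which makes the SV40 T antigens in the prostate epithelium and gives rise to prostate tumours. Each of the 12 groups held 3 libraries. A library's group was read from the tables in which its column stood, and libraries are named here by the number in that column. The values hold no measure of Elac2 mRNA, so the genotypes were not checked from the data.

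ELAC2 is the endonuclease (RNase Z) that cuts the 3′ trailer from precursor tRNAs. SnoRNAs are short stable RNAs, mostly cut from introns, that guide chemical modification of other RNAs. Those with boxes C and D guide methylation of ribosomal RNA, those with boxes H and ACA guide pseudouridine formation, and the related scaRNAs work in Cajal bodies on the RNAs of the spliceosome. Small pieces of these RNAs are sequenced along with miRNAs, and some of them were entered as miRNAs in the public register. B2 elements are short repeats of the mouse genome made by RNA polymerase III, and many copies also lie inside the transcripts of other genes.

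The sequences show what kind of RNA each entry can count. RefSeq mature sequences were found for 6 of the 8 entries, and they are printed 5′ to 3′ with the seed (bases 2 to 8, the part of a miRNA that pairs with targets) in capitals.
mmu-miR-1291: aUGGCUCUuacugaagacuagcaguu
mmu-miR-5121: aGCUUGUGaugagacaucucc
mmu-miR-1839-5p: aAGGUAGAuagaacaggucuug
mmu-miR-3473b: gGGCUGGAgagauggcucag
mmu-miR-3473e: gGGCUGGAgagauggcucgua
mmu-miR-690: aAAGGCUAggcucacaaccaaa
Among these 6, mmu-miR-3473b and mmu-miR-3473e had the same seed and the same 18 bases at the 5′ end. The other 4 each had a different seed.

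The mature sequence of mmu-miR-1291 (chr15:98519828-98519853, minus strand, GRCm38) made up bases 1 to 26 of the 138-base snoRNA Snora34, an H/ACA snoRNA that lies in an intron of Kansl2. That of mmu-miR-5121 (chr7:45126925-45126945, minus strand) made up bases 3 to 23 of the 84-base Snord33, a C/D snoRNA within the ribosomal protein gene Rpl13a. From base 7 the mmu-miR-5121 sequence reads UGAUGA, the core letters of box C, which 0.719% of the 1670 listed miRNAs with a RefSeq mature sequence contained (same strand searched). mmu-miR-1839-5p (chr7:81529919-81529940, plus strand) covered bases 65 to 86 of a 127-base scaRNA that the annotation names Mir1839, and the place is also an exon of the long noncoding RNA 2900076A07Rik. The 2 miR-1839 entries are the opposite arms of 1 hairpin, printed here with the 5p arm in capitals because both arms are counted below.
Mir1839 hairpin: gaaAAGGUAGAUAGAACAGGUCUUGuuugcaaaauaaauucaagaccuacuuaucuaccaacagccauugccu
Thus mmu-miR-1291 and mmu-miR-5121 lay at the 5′ end of their snoRNAs and mmu-miR-1839-5p in the 3′ part of its scaRNA, as the map of positions in the host RNAs shows.

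**Figure D1:**
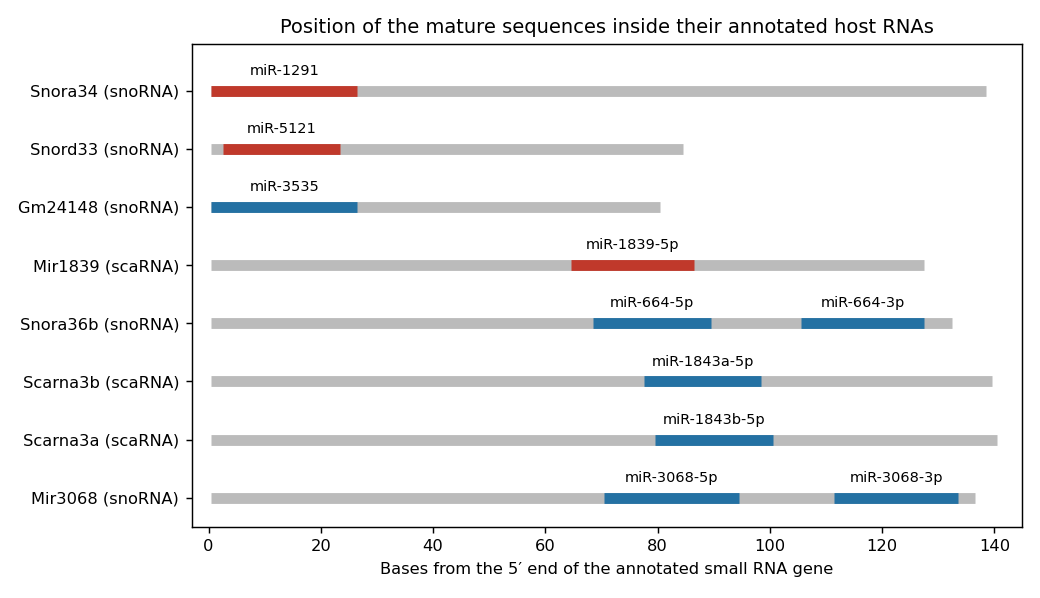
The horizontal axis gives bases from the 5′ end of each annotated small RNA gene (grey bar, to scale, GENCODE annotation). Red marks members and blue marks other listed miRNAs with a mean of at least 10 CPM (counts per 1000000 miRNA reads) that lie in such a gene. The sequences of miR-1291, miR-5121 and miR-3535 begin at base 1, 3 and 1 of their hosts, whereas the rest begin at base 65 or later.

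The remaining entries were not in annotated snoRNA genes. The hairpin of mmu-miR-3473b (chr10:41670739-41670793, plus strand) lay in an intron of Ccdc162 on the opposite strand, that of mmu-miR-3473e (chr5:31667231-31667340, minus strand) in an intron of Rbks, and that of mmu-miR-690 (chr16:28599935-28600043, minus strand) in an intron of Fgf12. The 3 hairpins shared a stretch, which was 18 bases long between the miR-3473b and miR-3473e hairpins and 18 bases long between those of miR-3473b and miR-690.
Shared by the miR-3473b and miR-3473e hairpins: gggcuggagagauggcuc
Shared by the miR-3473b and miR-690 hairpins: gcuggagagauggcucag
This stretch matches the start of the B2 element as it is commonly given. The whole mature mmu-miR-3473b sequence occurred in annotated transcripts of 360 of 55450 genes (0.649%), on the transcribed strand, whereas that of mmu-miR-3473e occurred in 1 gene and that of mmu-miR-690 in 19. Reads from such transcripts cannot be told apart from reads of the miR-3473b hairpin, and a read of the shared 18 bases cannot be assigned to mmu-miR-3473b or mmu-miR-3473e. The mmu-miR-5099 hairpin (chr12:36816205-36816278, plus strand) overlapped no other annotated gene.
Mir5099 hairpin: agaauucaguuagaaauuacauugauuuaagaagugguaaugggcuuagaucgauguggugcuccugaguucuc

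Levels are given as CPM, the reads of an entry per 1000000 miRNA reads of its library. Over the 36 libraries mmu-miR-1839-5p had the highest mean, 520.6 CPM, which ranked it 84 of the 1963 listed miRNAs. mmu-miR-5099 followed with 161 CPM, mmu-miR-1291 with 17.99, mmu-miR-1839-3p with 16.7, mmu-miR-3473b with 14.7, mmu-miR-3473e with 10.2, mmu-miR-5121 with 6.55 and mmu-miR-690 with 4.01 CPM. Together the 8 entries took between 0.0563% and 0.108% of the miRNA reads of a library. All 8 were among the 514 miRNAs tested, those with a mean of at least 1 CPM. Libraries held 4544257 to 21870210 reads apart from library 35 (A537T, 10 weeks) with 655455, where no read of mmu-miR-690 was found, which allows up to 4.58 CPM, and 1 of mmu-miR-3473e. Marker miRNAs of epithelium, the miR-200 family, miR-205 and miR-375 among them, were present in every library and took 3.84% to 10.3% of reads.

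Within groups, the entries differed widely in how steady they were. The residual standard deviation of log2(CPM + 1) was 0.235 for mmu-miR-1839-5p and 0.266 for mmu-miR-1839-3p, lower than for most of the 514 miRNAs (percentiles 9.53 and 16.9). It was 0.599 for mmu-miR-1291, 0.652 for mmu-miR-3473b, 0.671 for mmu-miR-3473e and 0.653 for mmu-miR-690, at percentiles 80.7 to 84.8. mmu-miR-5121 (0.395) and mmu-miR-5099 (0.418) lay in the middle. Over the 12 groups, limma's F test called all 8 entries (adjusted p between 5.3e-08 and 0.018), against 73.7% of all miRNAs tested, and the call of mmu-miR-5099 was lost without library 1 or 2 (adjusted p up to 0.0649).

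**Figure D2:**
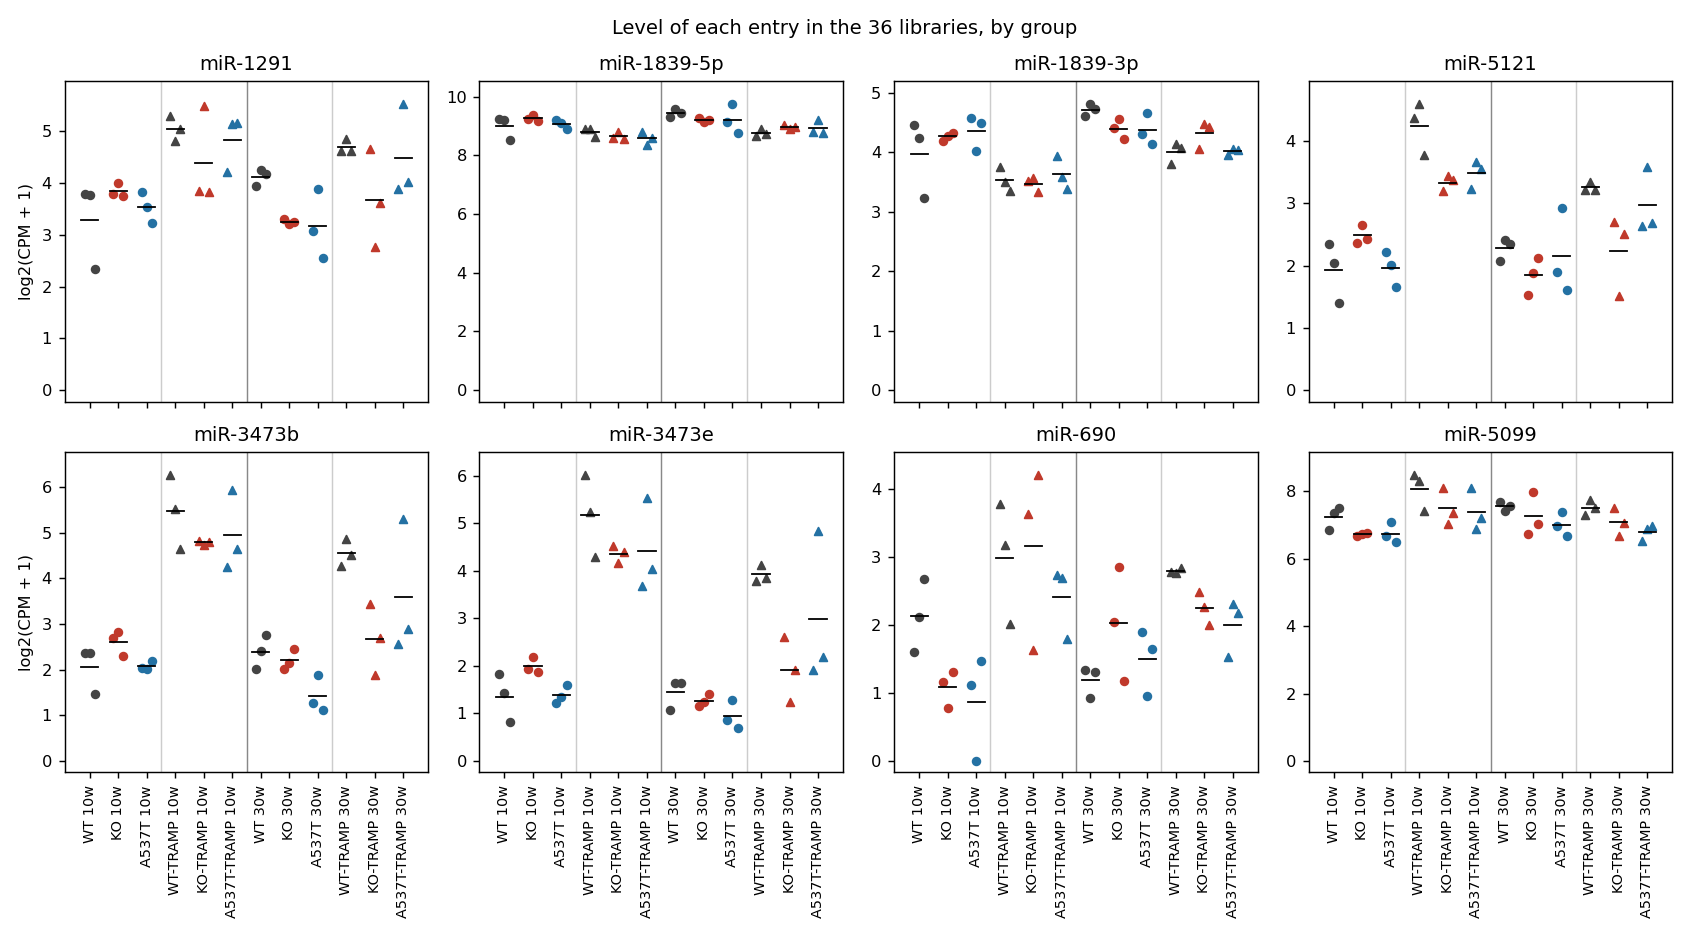
Each panel shows 1 entry, each point 1 library (triangles with TRAMP, circles without) and each line the mean of its group, on a log2(CPM + 1) axis, with the 12 groups ordered by age, TRAMP and line. miR-3473b, miR-3473e and miR-5121 stood higher in all 9 TRAMP libraries than in all 9 others at 10 weeks, and miR-1839-5p had the smallest spread within groups.

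The clearest difference was between TRAMP and non-TRAMP prostates at 10 weeks, averaged over WT, KO and A537T. The comparison asks how these entries differed with the transgene whatever the Elac2 allele. TRAMP libraries had the numbers 1 to 18 and the others 19 to 36, and the labels do not say what the numbers follow. Anything that followed this order cannot be told apart from TRAMP. Of the 8 entries 6 were called higher with TRAMP and 2 lower, against 25.5% of all 514 miRNAs called higher and 39.9% called lower. Counts of entries, here and below, are not counts of independent results. mmu-miR-3473b and mmu-miR-3473e share 18 bases and varied together (Pearson's r of 0.993 over the 36 libraries). Both miR-1839 entries come from 1 hairpin. The median log2 difference of the 8 was 1.34 and that of all miRNAs tested was -0.285. When libraries were scaled by median-of-ratios size factors in place of the total, the median of all miRNAs moved to -0.132.

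The largest differences were those of the entries with the B2-like sequence. mmu-miR-3473b was at 18.1 to 76.4 CPM (median 27.04) in the 9 TRAMP libraries at 10 weeks and at 1.75 to 6.12 CPM (median 3.92) in the 9 others. By group it reached 23.9, 44.7 and 76.4 CPM in WT-TRAMP, 25.8, 27.04 and 27.2 in KO-TRAMP, and 18.1, 23.97 and 60.3 in A537T-TRAMP. Every TRAMP library thus exceeded every other library of that age. The log2 difference was 2.82 ± 0.29 (SE, adjusted p = 6.4e-09). mmu-miR-3473e was at 11.9 to 64.0 CPM (median 20.2) against 0.760 to 3.54 (median 2.03), again without overlap, with a log2 difference of 3.08 ± 0.30 (adjusted p = 2.1e-09). mmu-miR-690, whose hairpin shares the stretch but whose mature sequence does not contain it, was at 2.09 to 17.5 CPM (median 5.66) against 0 to 5.38 (median 1.49). Its ranges overlapped and its log2 difference was 1.49 ± 0.29 (adjusted p = 9.4e-05). The other listed miR-3473 entries (a, c, d, f, g and the 5p arm of h) had means below 1 CPM, and miR-3473c had no read in any library, so they were not tested.

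The entries at the 5′ ends of snoRNAs were also higher with TRAMP. mmu-miR-5121, from Snord33, was at 8.16 to 23.2 CPM (median 10.8) in TRAMP libraries and at 1.64 to 5.31 CPM (median 3.66) in the others at 10 weeks, with no overlap. Its log2 difference was 1.56 ± 0.19 (adjusted p = 7.2e-08). In WT-TRAMP it was at 12.7, 19.8 and 23.2 CPM, above the 8.16 to 11.6 CPM of the KO-TRAMP and A537T-TRAMP libraries. How many of all miRNAs were set apart in this way was not counted. mmu-miR-1291, from Snora34, was at 13.1 to 43.9 CPM (median 31.8) against 4.03 to 15.1 (median 12.6), with a log2 difference of 1.20 ± 0.27 (adjusted p = 0.00043). Among KO-TRAMP libraries it was at 13.1, 13.4 and 43.9 CPM, so that 2 of the 3 lay within the range of the non-TRAMP mice. Non-overlap of the 9 TRAMP and 9 other libraries was seen for 3 of the 8 entries at 10 weeks, each higher with TRAMP, against 9.14% of all miRNAs tested, and for none of the 8 at 30 weeks, against 8.37%.

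Both arms of miR-1839 were lower with TRAMP. mmu-miR-1839-5p was at 328.1 to 479.5 CPM (median 392.3) against 363.7 to 659.6 (median 592.5) at 10 weeks, with a log2 difference of -0.43 ± 0.11 (adjusted p = 0.0020). This call was lost with median-of-ratios scaling and with DESeq2, with adjusted p up to 0.0522. mmu-miR-1839-3p was at 9.07 to 14.3 CPM (median 10.5) against 8.42 to 22.9 (median 18.4), a log2 difference of -0.66 ± 0.13 (adjusted p = 0.00014). The lowest of the non-TRAMP values for both arms came from 1 WT library, number 30, in which skeletal muscle miRNAs took 30.6% of the reads. The ratio of 5p to 3p reads ranged from 22.3 to 46.4 over all libraries. At 10 weeks it was 29.7 to 46.4 (median 40.6) with TRAMP and 22.3 to 43.2 (median 33.1) without. At 30 weeks it was 22.5 to 37.9 (median 28.9) with TRAMP and 25.2 to 35.6 (median 28.4) without. The ratio was not tested. mmu-miR-1291 and mmu-miR-5121 on one side and both arms of miR-1839 on the other thus differed in the sign of their TRAMP difference.

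mmu-miR-5099 was at 117.0 to 360.0 CPM (median 169.9) with TRAMP and at 89.5 to 182.8 (median 107.0) without at 10 weeks. The ranges overlapped. The log2 difference was 0.75 ± 0.19 (adjusted p = 0.0014).

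**Figure D3:**
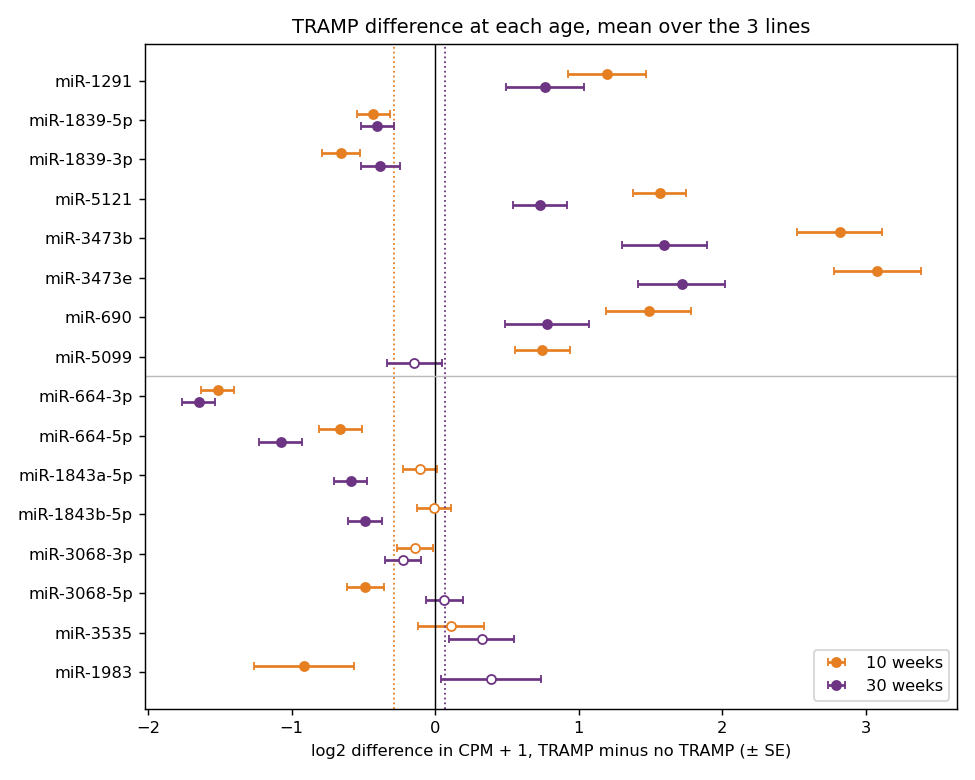
The horizontal axis gives the log2 difference in CPM + 1 between TRAMP and non-TRAMP libraries, averaged over the 3 lines, with its standard error, at 10 weeks (orange) and 30 weeks (purple), with filled points for adjusted p under 0.05 and dotted lines at the median of all 514 miRNAs. miR-3473b and miR-3473e reached 2.82 and 3.08 at 10 weeks and 1.60 and 1.72 at 30 weeks, and the other small-RNA entries below the grey line did not share one direction.

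At 30 weeks the same comparison called 5 of the 8 entries higher with TRAMP (all miRNAs 28.8%) and 2 lower (all miRNAs 16.3%), and mmu-miR-5099 was not called. mmu-miR-3473b was at 2.68 to 38.7 CPM (median 9.86) with TRAMP and at 1.16 to 5.79 (median 3.05) without, and mmu-miR-3473e at 1.38 to 27.8 (median 5.06) against 0.616 to 2.13 (median 1.37). Their ranges now overlapped and their log2 differences were 1.60 ± 0.29 (adjusted p = 6.1e-05) and 1.72 ± 0.30 (adjusted p = 3.4e-05). mmu-miR-5121 was at 1.87 to 11.001 CPM (median 5.51) against 1.89 to 6.64 (median 3.23), a difference of 0.73 ± 0.19 (adjusted p = 0.0022). mmu-miR-1291 differed by 0.77 ± 0.27 (adjusted p = 0.022), a call lost without library 14, 16 or 27. mmu-miR-690 differed by 0.78 ± 0.29 (adjusted p = 0.032), and this call was lost under 5 of the 6 other settings and without any of 6 single libraries, with adjusted p up to 0.099. mmu-miR-1839-5p (-0.40 ± 0.11, adjusted p = 0.0055) and mmu-miR-1839-3p (-0.38 ± 0.13, adjusted p = 0.022) stayed lower, the latter not without library 26. mmu-miR-5099 differed by -0.15 ± 0.19 (adjusted p = 0.57).

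The TRAMP difference was smaller at 30 than at 10 weeks for 4 entries. The interaction was -1.22 ± 0.42 for mmu-miR-3473b (adjusted p = 0.025), -1.36 ± 0.43 for mmu-miR-3473e (adjusted p = 0.016), -0.83 ± 0.27 for mmu-miR-5121 (adjusted p = 0.017) and -0.89 ± 0.27 for mmu-miR-5099 (adjusted p = 0.013). Of all 514 miRNAs 8.95% were called in that direction and 28.2% in the other, around a median of 0.289. This balance depended on the scaling, since 75.9% of the miRNAs called had the positive sign with limma, 48.2% with median-of-ratios scaling (median 0.012), 48.1% with DESeq2 and 86.1% when skeletal muscle miRNAs were left out of the total. The call of mmu-miR-3473b was lost without the filter on low levels (adjusted p = 0.0582). Among TRAMP mice alone, 4 entries were lower at 30 than at 10 weeks (all miRNAs 7.2%), with log2 differences of -1.46 ± 0.29 for mmu-miR-3473b, -1.71 ± 0.30 for mmu-miR-3473e, -0.86 ± 0.19 for mmu-miR-5121 and -0.53 ± 0.19 for mmu-miR-5099. mmu-miR-1839-3p was higher by 0.56 ± 0.13 (all miRNAs called higher 20.2%). The mmu-miR-5099 call (adjusted p = 0.041) was lost in 12 of the alternative fits, 11 of which each left out 1 library. Without TRAMP no entry was called between the ages by limma, against 33.5% of all miRNAs, and the 8 log2 differences lay between -0.35 and 0.37. At an unadjusted p under 0.05 limma found 1 of the 8. At an adjusted p under 0.05 edgeR called 0 and DESeq2 called 3 (mmu-miR-5099 and both arms of miR-1839, each higher at 30 weeks).

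Other measures moved with TRAMP too. At 10 weeks the TRAMP libraries were shallower (4544257 to 13014486 reads, against 12422946 to 18574473 without TRAMP and without library 35). The 4 stroma and smooth muscle miRNAs, all measured in every library, took 7.499% to 22.6% of reads with TRAMP and 7.08% to 39.9% without. Most of these reads were of miR-143-3p, with a median of 166092 CPM over the 36 libraries. The medians of miR-145a-5p, miR-199ab-3p and miR-214-3p were 6184, 6280 and 119 CPM. Red cell miRNAs took 0.0138% to 0.0617% with TRAMP and 0.106% to 0.193% without. Skeletal muscle miRNAs took 0.218% to 3.09% with TRAMP and 0.734% to 30.6% without, and epithelium miRNAs 6.33% to 9.29% against 3.84% to 6.88%. At 30 weeks white blood cell miRNAs took 0.0731% to 0.170% with TRAMP and 0.0234% to 0.0634% without. The part of these shares in the differences of the 8 entries was not tested. In bulk tissue, fewer cells of a type and less RNA per cell cannot be told apart.

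The balance within the miR-3473 pair differed as well. The ratio of mmu-miR-3473b to mmu-miR-3473e reads was 1.19 to 1.54 (median 1.33) in TRAMP libraries and 1.49 to 2.46 (median 1.96) in the others at 10 weeks. At 30 weeks it was 1.39 to 2.00 with TRAMP and 1.72 to 2.74 without. These ratios are given as a description and were not tested.

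Next, each mutant line was compared with WT, the question being whether loss or mutation of ELAC2 moved entries that may count pieces of other RNAs. Averaged over both ages and both backgrounds, no entry was called in KO mice, and 0% of the 514 miRNAs were. The 8 log2 differences ranged from -0.59 ± 0.26 (mmu-miR-3473e) to 0.05 ± 0.12 (mmu-miR-1839-3p), with a median of -0.457. At an unadjusted p under 0.05 limma found 106 of the 514 miRNAs and 5 of the 8 entries, each of these lower in KO. At an adjusted p under 0.05 edgeR called 0 miRNAs and DESeq2 21, none of them a member. In A537T mice the differences ranged from -0.61 ± 0.25 (mmu-miR-3473b) to 0.04 ± 0.12 (mmu-miR-1839-3p), none was called, and 0% of the miRNAs were called. By limma 49 miRNAs had an unadjusted p under 0.05, among them 4 of the 8 entries, each lower in A537T. After adjustment edgeR called 0 miRNAs and DESeq2 1. None of these differences passed the adjustment over the 514 miRNAs, which does not show that the lines were alike.

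By pair of groups, limma called no member in KO at 10 weeks (3.89% of all miRNAs called), KO at 30 weeks (0.584%), A537T at 10 weeks (0.195%) or A537T at 30 weeks (0%). None was called in KO-TRAMP at 10 weeks (0%), A537T-TRAMP at 10 weeks (0%) or A537T-TRAMP at 30 weeks (0%) against WT-TRAMP either. In the 4 comparisons with no call by limma, 26 to 43 miRNAs had an unadjusted p under 0.05 by limma, among them 0 or 1 of the 8 entries. After adjustment edgeR called 0 to 7 miRNAs there and DESeq2 0 to 23, none of them a member. In KO at 10 weeks DESeq2 called 1 member, where it called 5 of all miRNAs higher and 35 lower. In KO at 30 weeks edgeR called 11 of all miRNAs higher and 39 lower, and DESeq2 called 21 higher and 44 lower. The KO difference with against without TRAMP, averaged over the ages, was called by limma and edgeR for no entry (0.195% of all by limma), with 3 of the 8 at an unadjusted p under 0.05 by limma, and by DESeq2 for mmu-miR-5121 and mmu-miR-3473e, both lower. By limma, mmu-miR-3473b, mmu-miR-3473e and mmu-miR-5121 were called when library 16 was left out. The A537T difference was called for none (0%, with 15 miRNAs at an unadjusted p under 0.05 and no call by edgeR or DESeq2). The pairs that share a WT or WT-TRAMP group are not independent of each other. At 10 weeks without TRAMP, skeletal muscle miRNAs took 9.71% to 30.6% of reads in WT, 0.734% to 6.49% in KO and 3.72% to 13.7% in A537T. Stroma and smooth muscle miRNAs took 7.08% to 30.2%, 30.3% to 35.9% and 18.2% to 39.9%. The part of these shares in the comparisons with WT at that age, and in the averages that include them, was not tested.

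KO-TRAMP against WT-TRAMP at 30 weeks was the only pair of these 8 in which entries were called by limma. Of the 8 entries 2 were lower in KO-TRAMP, against 1.36% of all miRNAs. These were mmu-miR-3473b and mmu-miR-3473e, which share 18 bases at the 5′ end and so are not 2 independent results. mmu-miR-3473b was at 18.5, 21.9 and 28.2 CPM in the WT-TRAMP libraries, at 2.68, 5.51 and 9.86 in KO-TRAMP and at 4.90, 6.45 and 38.7 in A537T-TRAMP. All KO-TRAMP values lay below all WT-TRAMP values, while the A537T-TRAMP values fell on both sides. The share of all miRNAs without overlap between groups of 3 libraries was not counted, so non-overlap in this paragraph is a description. For mmu-miR-3473b the log2 difference between KO-TRAMP and WT-TRAMP was -1.88 ± 0.51 (adjusted p = 0.023). mmu-miR-3473e was at 12.9, 13.5 and 16.5 CPM in WT-TRAMP, at 1.38, 2.75 and 5.06 in KO-TRAMP and at 2.79, 3.59 and 27.8 in A537T-TRAMP, with a log2 difference of -2.01 ± 0.52 (adjusted p = 0.018). mmu-miR-5121 was at 8.33, 8.34 and 9.16 CPM in WT-TRAMP and at 1.87, 4.67 and 5.51 in KO-TRAMP. These did not overlap, and the difference of -1.02 ± 0.33 did not pass the threshold (adjusted p = 0.058). It passed with edgeR (0.0318), DESeq2 (0.0158), median-of-ratios scaling (0.0223) and a pseudocount of 10 (0.0443), and not in the table of 6 libraries (0.236) or without library 17 (log2 difference -0.66, adjusted p = 0.503).

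These calls rested on few libraries. The calls of mmu-miR-3473b and mmu-miR-3473e were lost without library 11, 12, 17 or 18 (log2 differences -1.49 to -1.90 and -1.67 to -2.04, adjusted p from 0.0626 to 0.30), and in the fit to the deposited table of these 6 libraries alone (log2 differences -2.24 and -2.53, adjusted p = 0.147 for both). That of mmu-miR-3473e was also lost with a pseudocount of 10 (log2 difference -0.90, adjusted p = 0.0594). Within each of the 3 TRAMP groups at 30 weeks the library with the smallest share of stroma and smooth muscle miRNAs had the highest mmu-miR-3473b. These were library 11 in WT-TRAMP (9.61% of reads), library 14 in A537T-TRAMP (9.20%) and library 16 in KO-TRAMP (6.15%). Library 16 had the smallest share of the 9, and its 9.86 CPM lay below all WT-TRAMP libraries of that age (18.5 to 28.2 CPM). KO-TRAMP libraries 17 and 18 had the largest shares of the 9, 34.2% and 24.5%. As stated above, this share is mostly that of miR-143-3p. White blood cell miRNAs took 0.0731% to 0.170% of reads in KO-TRAMP and 0.0898% to 0.115% in WT-TRAMP. The part of these shares in the difference was not tested.

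**Figure D4:**
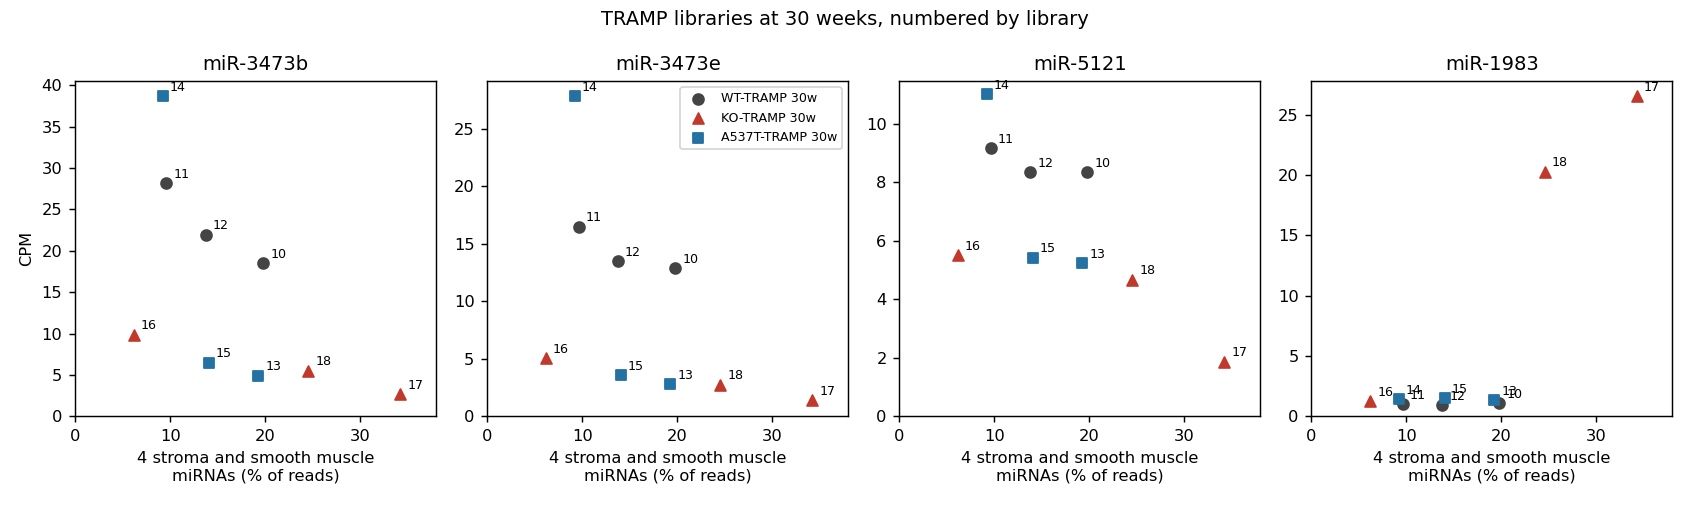
Each point is 1 of the 9 TRAMP libraries at 30 weeks, marked with its number, with the percentage of reads from 4 stroma and smooth muscle miRNAs on the horizontal axis and CPM on the vertical axis. KO-TRAMP libraries (red triangles) lay below WT-TRAMP libraries (grey circles) for miR-3473b, miR-3473e and miR-5121, and miR-1983 stood high only in KO-TRAMP libraries 17 and 18, at 26.5 and 20.3 CPM, among these 9. The share of all miRNAs set apart between these groups was not counted.

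Because ELAC2 cuts precursor tRNAs, a listed entry that overlaps a tRNA gene was set beside the members. It was picked by name, and the other listed miRNAs were not searched for overlap with nuclear tRNA genes. mmu-miR-1983 (chr13:21896930-21896950, minus strand) covered 13 bases at the 3′ end of the RefSeq tRNA gene n-TItat14 (chr13:21896938-21897031) and 8 bases beyond it, the latter printed in capitals.
mmu-miR-1983: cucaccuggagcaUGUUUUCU
The entry thus spans the position that ELAC2 cuts, with a piece of the 3′ trailer that a processed tRNA lacks. Its mean of 3.44 CPM was below the level set for naming such entries, and it is given because its values were seen. In KO-TRAMP at 30 weeks it was at 1.24, 20.3 and 26.5 CPM, the high values being those of libraries 17 and 18 and the low value that of library 16. WT-TRAMP libraries of that age had 0.919, 1.03 and 1.06 CPM, and A537T-TRAMP libraries 1.31, 1.43 and 1.51. In the remaining 9 groups it ranged from 0 to 6.49 CPM, and KO libraries without TRAMP had 4.42 to 6.49 CPM at 10 weeks and 1.42 to 2.40 at 30 weeks. The log2 difference between KO-TRAMP and WT-TRAMP at 30 weeks was 2.45 ± 0.61 (adjusted p = 0.018), where 4.86% of all miRNAs were called higher. The call was lost without library 11, 12, 17 or 18 (adjusted p from 0.057 to 0.245) and in the table of 6 libraries (0.253), and without library 16 the difference was 3.60 ± 0.48. mmu-miR-1983 and the mmu-miR-3473 entries did not follow each other in KO-TRAMP, where library 16 had the lowest mmu-miR-1983 and the highest mmu-miR-3473b and mmu-miR-3473e.

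Other listed miRNAs inside annotated snoRNA or scaRNA genes were compared with the members. There were 22 such miRNAs in all, members included, of which 9 had a mean of at least 10 CPM. The arms of miR-664, from the H/ACA snoRNA Snora36b in an intron of Rab3gap2, were lower with TRAMP at both ages. mmu-miR-664-3p was at 8.88 to 15.3 CPM with TRAMP and 25.9 to 53.4 without at 10 weeks, and at 9.74 to 19.4 against 38.7 to 58.7 at 30 weeks, without overlap at either age. Its log2 differences were -1.51 ± 0.11 (adjusted p = 1.0e-11) and -1.65 ± 0.11 (adjusted p = 1.6e-12), the largest fall among the entries named here. mmu-miR-664-5p differed by -0.66 ± 0.15 (adjusted p = 0.00044) and -1.07 ± 0.15 (adjusted p = 1.1e-06). mmu-miR-1843a-5p and mmu-miR-1843b-5p, from the scaRNA genes Scarna3b and Scarna3a, were lower at 30 weeks, by -0.59 ± 0.12 (adjusted p = 0.00014) and -0.49 ± 0.12 (adjusted p = 0.0013). At 10 weeks they differed by -0.10 ± 0.12 and -0.01 ± 0.12 and their sign depended on the scaling. mmu-miR-3068-5p was lower at 10 weeks by -0.48 ± 0.13 (adjusted p = 0.0019) and differed by 0.07 ± 0.13 at 30 weeks, with a sign that depended on the scaling, while mmu-miR-3068-3p passed the test at neither age (-0.14 ± 0.12 and -0.23 ± 0.12, the former with a sign that depended on the scaling). It was called lower at 30 weeks with median-of-ratios scaling, edgeR and DESeq2 (lowest adjusted p 0.0285) and at 10 weeks when skeletal muscle miRNAs were left out of the total (0.0459).

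mmu-miR-3535, which like mmu-miR-1291 begins at base 1 of an annotated snoRNA (Gm24148), did not rise with mmu-miR-1291 and mmu-miR-5121. It was at 110.7 to 204.9 CPM with TRAMP and 48.6 to 199.6 without at 10 weeks, and at 70.6 to 276.1 against 59.3 to 209.2 at 30 weeks. Its log2 differences were 0.11 ± 0.23 (adjusted p = 0.68, reversed to -0.04 when skeletal muscle miRNAs were left out of the total) and 0.33 ± 0.23 (adjusted p = 0.25). A place at the 5′ end of a snoRNA thus did not go with a called rise in each of the 3 entries. This split by position was made after the values were seen. mmu-miR-677-5p, which begins at base 3 of its host, was left aside with a mean of 7.11 CPM. The level of 10 CPM was asked of entries that were not members, and the member mmu-miR-5121 had a lower mean, 6.55 CPM. The comparison of entries at 5′ ends is therefore incomplete.

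Finally, for each entry the 2 most similar of the 298 miRNAs with a mean of at least 10 CPM were found by Pearson's r of log2(CPM + 1) over the 36 libraries. These r values are descriptions, since libraries of a group share its differences. mmu-miR-3473b and mmu-miR-3473e were most like each other (0.993). After each other, mmu-miR-3473b was most like mmu-miR-1291 (0.846) and mmu-miR-3473e most like mmu-miR-196a-1-3p (0.848). mmu-miR-5121 was most like mmu-miR-3473e (0.932) and mmu-miR-3473b (0.925), with which it shares neither a seed nor a host gene. mmu-miR-1291 was most like mmu-let-7f-1-3p (0.874) and mmu-miR-26b-5p (0.867). mmu-miR-1839-5p was most like mmu-miR-320-3p (0.828) and mmu-miR-1839-3p (0.821), and mmu-miR-1839-3p most like mmu-miR-1839-5p (0.821) and mmu-miR-700-5p (0.757). mmu-miR-5099 was most like mmu-miR-30b-3p (0.843) and mmu-let-7c-5p (0.784), and mmu-miR-690 most like mmu-miR-195a-3p (0.706) and mmu-miR-1198-5p (0.703), the loosest of the likenesses.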

How the data were processed

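Small RNA of 36 prostate libraries, 3 per group, was sequenced (Illumina NovaSeq, TruSeq Small RNA). The authors merged read pairs with BBMerge and quantified them with mirDeep2 against GRCm38 and miRBase, and summed entries of identical sequence. They deposited 8 tables of DESeq2-normalised signal, reads divided by the library's size factor, each for 6 libraries. Further tables held their own comparisons (fold changes and significance values) and were not used. Whole reads were obtained again from the smallest value above 0 in each column, taken as 1 read: 100% of values were whole within 0.0001, and the 12 control columns that stand in 2 tables were identical. The log2(CPM + 1) values were fitted with limma (3.58.1, R 4.3.3) over 12 group means of 36 libraries, for the 514 miRNAs with a mean of at least 1 CPM, with 17 contrasts and Benjamini-Hochberg adjustment over all 514, at 0.05. Adjusted p-values in the text are limma's unless another tool is named. A call means an adjusted p under 0.05 with each tool. DESeq2 (1.42.0), which the authors used, and edgeR (4.0.16) were run on the whole reads as alternatives. The others were a pseudocount of 10, no filter, median-of-ratios scaling, a total without skeletal muscle miRNAs, each table of 6 libraries alone and leaving out each library. The scripts were tested on simulated data.

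Intervals of 0 reads (3 reads) cover counting error only. A fold change on log2(CPM + 1) understates the change of low entries. Sequences are from RefSeq (GRCm38) and positions in host RNAs and transcripts from GENCODE. The study's methods describe 3 mice per group, and the columns do not tie a library to a numbered replicate of the labels. The members, companion lists and tests were chosen with earlier results of these data known. The text names the 8 members, for each the 2 miRNAs most alike in pattern, and miRNAs inside other small RNA genes with a mean of at least 10 CPM.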

Additional observations from a re-analysis of the deposited data

Results flagged for a closer look

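For 4 members the TRAMP difference at 30 weeks differed from that at 10 weeks by limma's interaction test (log2 difference at 30 weeks minus that at 10 weeks). It was -1.22 for mmu-miR-3473b, -1.36 for mmu-miR-3473e, -0.83 for mmu-miR-5121 and -0.89 for mmu-miR-5099. In the first 3 the TRAMP libraries were higher at both ages and less so at 30 weeks, and in mmu-miR-5099 the difference was 0.75 at 10 weeks and -0.15 at 30 weeks.

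The same test passed for 4 other small-RNA entries. It gave -0.48 for mmu-miR-1843a-5p (adjusted p = 0.024) and -0.48 for mmu-miR-1843b-5p (adjusted p = 0.028), both lost without the filter on low levels and when skeletal muscle miRNAs were left out of the total. It gave 0.55 for mmu-miR-3068-5p (adjusted p = 0.021), lost with median-of-ratios scaling and with DESeq2. For mmu-miR-1983 it gave 1.31 (adjusted p = 0.040), with KO-TRAMP libraries 17 and 18 at 26.5 and 20.3 CPM, and this call was lost in 21 of the 42 alternative fits.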

How the results depend on the processing

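No paired analysis was possible because the columns carry no replicate numbers. Among members, calls with TRAMP against none at 10 weeks numbered 8 in each fit leaving out a library and 7 or 8 under the other settings. Without a library, the members called numbered 5 to 7 for TRAMP at 30 weeks, 4 to 6 between ages with TRAMP, 4 to 5 for the interaction and 7 to 8 in the F test. KO against WT at 10 weeks gave 1 with DESeq2 (40 miRNAs in all, 20 with limma). The age difference without TRAMP gave 3 with median-of-ratios scaling and 3 with DESeq2, and 0 to 1 without a library. The KO difference with against without TRAMP gave 2 with DESeq2 (43 miRNAs in all) and 0 to 3 without a library, the most without library 16. KO-TRAMP against WT-TRAMP at 30 weeks gave 0 in the table of 6 libraries, where no miRNA passed, and 0 to 4 without a library (all miRNAs 32 with limma, 50 with edgeR, 61 with DESeq2, 0 to 102 without a library). KO against WT averaged gave 0 to 1 without a library. Some uncalled differences changed sign: mmu-miR-1843a-5p at 10 weeks to 0.095 (median-of-ratios) and 0.093 (DESeq2). mmu-miR-1843b-5p changed to 0.191, 0.045 (edgeR) and 0.194, and to -0.061 to 0.056 without a library. mmu-miR-3068-3p changed to 0.054 and 0.075, and mmu-miR-3535 to -0.043 without muscle miRNAs and to -0.062 to 0.196 without a library. mmu-miR-3068-5p at 30 weeks changed to -0.062, -0.045 and -0.065. The cause was not tested. Among all miRNAs called between ages with TRAMP, 73.8% were higher with limma, 49.4% with edgeR and 54.4% with DESeq2; for TRAMP at 30 weeks these were 63.8%, 52.9% and 51.7%. For TRAMP at 10 weeks the share was 39.0%, and 48.0% with median-of-ratios scaling; between ages without TRAMP it was 38.4% and 57.5%, and 18.9% without muscle miRNAs in the total. Depth limited the entries most in library 35, with 2 reads of mmu-miR-5121, 1 of mmu-miR-3473e and 0 of mmu-miR-690.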
